A study of Mus musculus with 4 samples.

Results

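The genes described here are 36 mouse genes of the p53 pathway and of apoptosis, chosen by name from what they are known to do, with earlier results of these data known. They were read in RNA from the autopod, the distal limb bud that forms the hand and foot, of C57BL/6 mouse embryos at E11.25 (E, days of embryonic development). There were 2 arrays of Hox13dKO autopods and 2 of wild-type autopods, 4 in all. Hox13dKO embryos are homozygous for a null allele of Hoxa13 and for HoxDdel, a deletion of Hoxd11, Hoxd12 and Hoxd13 together, in every cell; wild-type embryos carry neither. Tissue was cut along the Hoxd13 domain of fore- and hindlimb buds. Titles call the samples biological replicates without saying how many embryos went into each, so p-values measure the spread between these samples.

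Of the 36 genes, 34 had at least 1 probe set that the platform annotation assigns to that gene alone, 86 probe sets in all, out of 18193 such genes in the whole series. Trp53, which encodes p53 itself, and Bax, a pore-forming death protein, had none and are not analysed here. Each gene was read from its brightest probe set. That probe set was bright enough to be tested for 32 genes (the mean log2 signal had to reach the 40th percentile), and those of the death receptor genes Fas and Tnfrsf10b were not. The unit is the MAS5 signal, a brightness per probe set on a linear scale. Signals below 14.1 were raised to that floor, and a log2 difference is always Hox13dKO minus wild type.

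p53 is a transcription factor that is held low by the ubiquitin ligase Mdm2 and its relative Mdm4. DNA damage and other stress release it, and it then switches on genes that halt the cell cycle, repair damage or start death. In the mitochondrial death pathway, BH3-only proteins either block the pro-survival Bcl2 family or activate the pore formers Bax and Bak1. Bok is a pore former too. The opened mitochondria release cytochrome c (Cycs) and Diablo, and Apaf1 with cytochrome c activates Casp9. Death receptors reach the caspases from the cell surface through Casp8. In the limb, cell death trims the margins of the bud and, at later stages than the one sampled, clears the tissue between the digits.

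The targeted genes were lower on both Hox13dKO arrays than on both wild-type arrays, as the labels have it, but not all were near the floor. Signals of Hoxd13 were 5.79 and 9.58 in Hox13dKO against 14540 and 16116 in wild type by its brighter probe set. Hoxd12 read 5.23 and 33.5 against 1208 and 2171, and Hoxa13 52.4 and 58.0 against 842 and 1463. Hoxd11 read 348 and 454 against 1831 and 1745, well above the floor in Hox13dKO although the deletion includes it, and which part of the gene its probe set reads was not examined. All 10 markers listed for limb mesenchyme were bright enough to be tested, among them Prrx1 at 7008 to 11938 over the 4 arrays. Each array had been scaled to a 2% trimmed mean of 500.003, and the arrays of replicate 1 had lower medians (66.1 in Hox13dKO, 65.8 in wild type) than those of replicate 2 (81.2 and 85.7). Wild type replicate 1 had the lowest ratio of 5′ to 3′ actin signal, 0.473, against 0.728 to 0.771 on the other arrays, a sign of RNA length. Its ratio for Gapdh, 1.23, was not the lowest, beside 1.17 and 1.16 in Hox13dKO and 1.25 in wild type replicate 2. The part of RNA length in any result below was not tested.

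In the Hox13dKO autopod most p53 and apoptosis genes differed little from wild type, and the pro-survival gene Bcl2, at less than the wild-type signal on both arrays, had the lowest difference among the 32. By limma and Benjamini-Hochberg adjustment across the 27022 probe sets tested, 0 of the 32 genes passed an adjusted p of 0.05, where 56 probe sets (0.207%) passed in the whole series. At an unadjusted p under 0.05 there were 2 of 32 (6.25%), Bcl2 and Pmaip1, against 7.25% of all 13072 genes tested. Both Hox13dKO arrays lay above both wild-type arrays for 2 genes (6.25%; 17.1% of all genes) and below them for 6 (18.8%; 20.1% of all genes). These shares are at or below those of all genes. A single gene compared by permuting 2 against 2 arrays cannot go below p = 0.333, so no exact test is given. RNA came from whole tissue, in which fewer cells with a transcript and less transcript per cell cannot be told apart.

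The differences were small as well. The median log2 difference of the 32 genes was -0.05, beside -0.03 over all genes tested, and their median size without sign was 0.14, beside 0.18. Bcl2 was the only one of the 32 (3.13%) with more than a 2-fold difference, which 5.21% of all genes had. The 95% interval of the fit lay within a 2-fold change in either direction for 27 of 32 (84.4%; 65.7% of all genes). The other five were Bcl2, Pmaip1, Sesn2, Eda2r and Bik, the latter pair at dim signals. The median SE was 0.195 for the 32 genes and 0.221 over all genes, so intervals of the 32 were typically narrower. The median gap between replicates of these 32 genes was 0.26 in Hox13dKO and 0.18 in wild type, beside 0.23 and 0.24 over all genes. An interval that covers 0, as it did for 30 of the 32, does not show that a gene was equal in both groups. Of 39 further probe sets of these genes that were tested, 20 had the sign of the brightest and 19 the opposite sign, so the direction of a small difference often depended on the probe set.

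**Figure D1:**
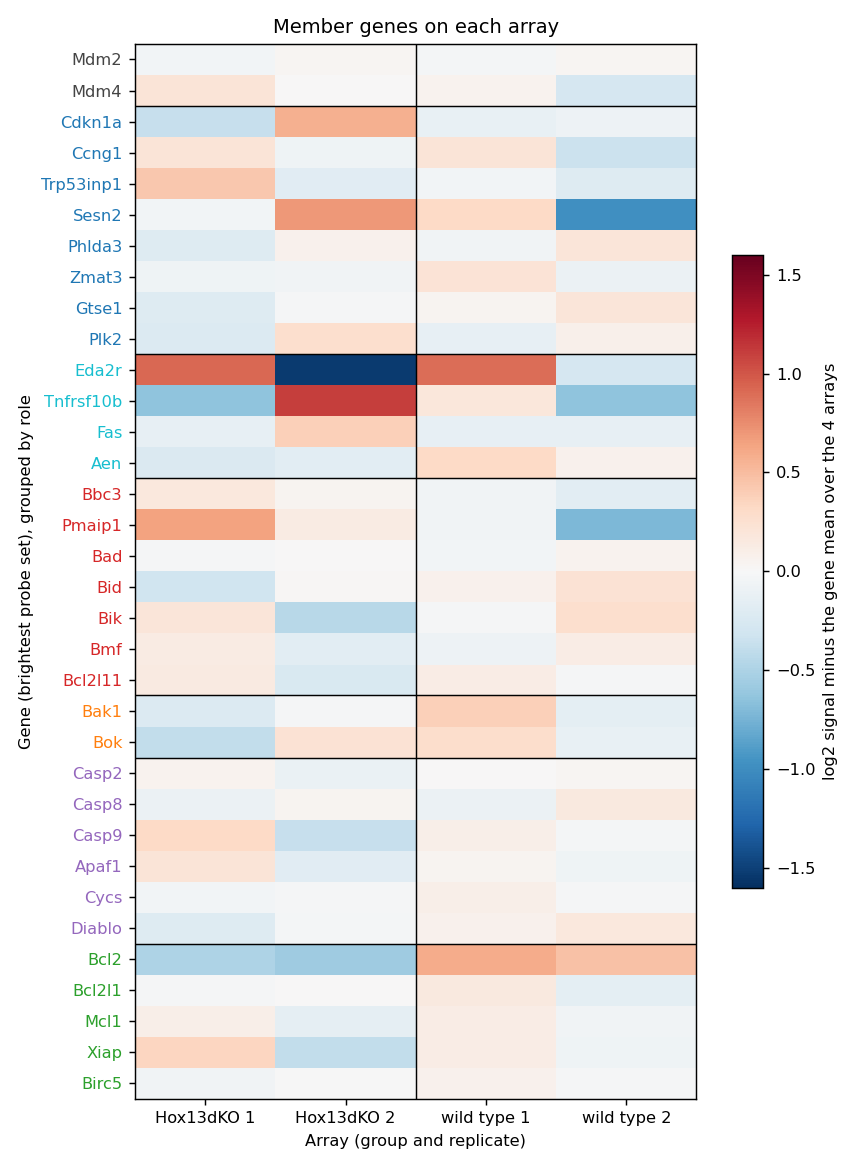
Log2 signal of the brightest probe set of each of the 34 genes with one, minus that gene's mean over the 4 arrays (colour), by array (columns) and role (rows, divided by lines). Bcl2 is the gene whose groups stand furthest apart, while Eda2r, Sesn2, Tnfrsf10b and Cdkn1a vary within a group.

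Among the p53 regulators, Mdm2, the main brake on p53 and itself a p53 target, had signals of 712 and 747 in Hox13dKO against 716 and 749 in wild type. The groups overlapped almost fully, and the log2 difference was -0.01 ± 0.17 (SE; 95% interval -0.40 to 0.38; adjusted p = 0.998 in limma). A further Mdm2 probe set gave 0.00 ± 0.22. The remaining probe set, too dim to be tested and above the floor only in wild type replicate 2, gave -1.09. As the mean over its probe sets Mdm2 differed by -0.37. Mdm4, which blocks p53 without degrading it, read 663 and 578 in Hox13dKO against 594 and 475 in wild type, again with overlap (0.22 ± 0.20; 0.38 with wild type replicate 1 left out, 0.0599 with its replicate 2 left out). The suffix of this brightest Mdm4 probe set marks possible cross-hybridisation. The dimmer Mdm4 probe sets gave 0.13, -0.94 and -0.80. The last pair read lower in Hox13dKO without overlap, so the Mdm4 probe sets disagree in direction.

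Of the p53 targets, some carry the p53 response element close to a start site, and these sequences are shown because p53 acts on its direct targets by binding such elements. In the window from 250 bases before to 50 bases after each RefSeq start (assembly GRCm38.p6), a match was a pair of p53 half-sites with no spacer, both cores intact (C, then A or T at 2 positions, then G) and at most 3 mismatches in the 12 flanking positions. The consensus is its own reverse complement, so both strands are covered. A match was found for 182 of 27025 genes (0.673%) and for 5 of the 31 members that have a window, namely Aen, Bbc3, Cdkn1a, Gtse1 and Trp53. Capitals mark the cores.
Cdkn1a: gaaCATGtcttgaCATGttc
Gtse1: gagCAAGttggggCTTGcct
Bbc3: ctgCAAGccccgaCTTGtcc
Aen: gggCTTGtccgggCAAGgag
The Cdkn1a element lies at chr17:29090928-29090947 (plus strand), upstream of an annotated start, with 1 mismatch. That of Gtse1, at chr15:85859945-85859964 (plus strand), spans the start site, with 1 mismatch. That of Bbc3 lies upstream of the start at chr7:16309486-16309505 (plus strand) with 3 mismatches. That of Aen, at chr7:78895937-78895956 (plus strand) with 3 mismatches, is upstream of one annotated start and just downstream of another. A match is a description of the letters and not a measured binding site. At most 1 mismatch was found for 2 members, Cdkn1a and Gtse1, against 18 of all genes (0.0666%).

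The 4 genes with these elements shared no direction. Cdkn1a, which encodes the cell cycle inhibitor p21 and is the best known p53 target, read 281 and 540 in Hox13dKO against 334 and 344 in wild type. The wild-type arrays lay between the Hox13dKO arrays, which differed by 0.94 on the log2 scale, and the log2 difference was 0.20 ± 0.32 (SE; 95% interval -0.54 to 0.94; adjusted p = 0.972 in limma). A second Cdkn1a probe set was too dim to be tested, at 19.1 and 93.2 against 23.6 and 8.49, and again Hox13dKO replicate 2 was the highest. Gtse1, a gene of late cell cycle phases that acts on p53 location, read 631 and 717 against 750 and 833. Both Hox13dKO arrays lay below both wild-type arrays, by a log2 difference of only -0.23 ± 0.18. Aen, a p53-induced nuclease, read 644 and 673 against 942 and 793, likewise without overlap (-0.39 ± 0.18, 1.31-fold lower, adjusted p = 0.820 in limma). By the other Aen probe sets the groups overlapped, at 0.05, 0.20 and 0.13. Bbc3, which encodes the BH3-only protein Puma, read 318 and 292 against 273 and 252, a small difference in the opposite direction (0.22 ± 0.25).

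The other p53 targets for arrest, repair and feedback overlapped between groups. Sesn2, a stress-induced regulator of growth signalling, had the highest log2 difference among them, 0.65 ± 0.51 (SE), from signals of 131 and 219 in Hox13dKO against 169 and 68.5 in wild type. The gap between the wild-type arrays, 1.30 on the log2 scale, exceeded the difference between groups. The Sesn2 difference was 1.30 with wild type replicate 1 left out, 0.00468 with its replicate 2 left out, and with a Hox13dKO array left out it was 1.03 (replicate 1) or 0.28 (replicate 2). Its other probe set gave -0.73, without overlap. Trp53inp1, which strengthens p53 in response to stress, read 2449 and 1601 against 1759 and 1581 (0.25 ± 0.21), so only 1 of the Hox13dKO arrays stood above the rest. Ccng1, a cyclin that feeds back on Mdm2, differed by 0.14 ± 0.21, and all 3 of its probe sets by 0.11 to 0.31. Plk2, a stress-responsive kinase, differed by 0.05 ± 0.20, Phlda3, an inhibitor of Akt signalling, by -0.14 ± 0.22, and Zmat3, an RNA-binding protein, by -0.13 ± 0.19.

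The death receptor genes among the members were dim. Eda2r, a receptor for ectodysplasin A2, read 76.9 and 3.63 in Hox13dKO against 75.8 and 33.9 in wild type. With 1 Hox13dKO array under the floor its log2 difference was -0.62 ± 0.96 (SE), with a 95% interval from -2.82 to 1.58, which does not settle a direction. It was 0.60 without Hox13dKO replicate 2, the array under the floor, -1.84 without the other Hox13dKO array, -0.0405 with wild type replicate 1 left out and -1.20 with its replicate 2 left out. Tnfrsf10b, the mouse receptor for the death ligand TRAIL, read 1.86 and 47.3 against 24.9 and 10.8, and Fas, the receptor for Fas ligand, 4.95 and 20.2 against 3.33 and 5.30. Both lay below the brightness limit and were not tested, and these signals are not shown to be above background.

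Over the 12 tested genes of the p53 axis (regulators and the targets above, without Bbc3), 6 differences were positive and 6 negative. Their median was 0.02, beside -0.03 for all genes, and it was -0.09 without Hox13dKO replicate 2, and between -0.01 and 0.00 with any other array left out. None of the 12 had an unadjusted p under 0.05 in limma, against 7.25% of all genes.

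**Figure D2:**
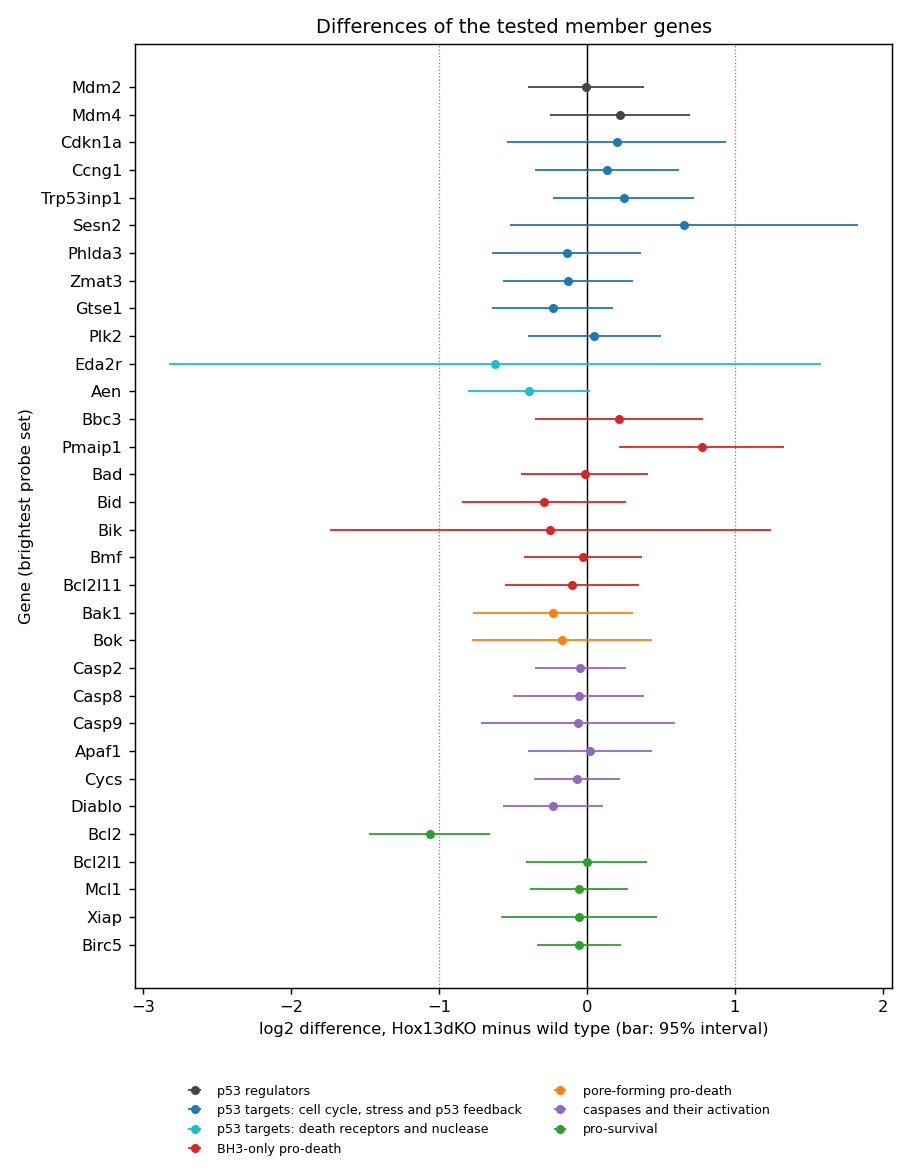
Log2 difference, Hox13dKO minus wild type, of the 32 tested genes (points) with the 95% interval of the limma fit (bars), coloured by role; dotted lines mark a 2-fold change. Bcl2 and Pmaip1 are the genes whose intervals leave out 0, and those of Eda2r and Bik are the widest.

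Among the BH3-only death genes, Pmaip1 had the highest log2 difference of all 32 genes. Pmaip1 encodes Noxa, a p53-inducible protein that neutralises Mcl1. Its single probe set read 10384 and 7222 in Hox13dKO against 6358 and 4029 in wild type. Both Hox13dKO arrays lay above both wild-type arrays, though the lower Hox13dKO array and the higher wild-type array are close, and within each group replicate 1 was the higher. The means were 8803 ± 2236 and 5194 ± 1647 (SD, n = 2 each), and the log2 difference was 0.77 ± 0.24 (SE; 1.71-fold; 95% interval 0.22 to 1.33), which did not pass (adjusted p = 0.539 in limma). Over alternative settings on all 4 arrays the adjusted p ran from 0.00107 (replicate number as a block) to 0.848 (no intensity trend). The difference was 1.10 with wild type replicate 1 left out, the wild-type array nearer to Hox13dKO. It was 0.45 with wild type replicate 2 left out. Among the Hox13dKO arrays, dropping replicate 1 gave 0.51 and dropping replicate 2 gave 1.04. Each such fit leaves 1 array in a group, with no spread of its own, so only the difference is given.

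The other BH3-only genes, Bbc3 aside, had negative differences by their brightest probe sets, none with an unadjusted p under 0.05, and several had further probe sets of the opposite sign. Bid, which links death receptors to the mitochondria, read 276 and 350 in Hox13dKO against 359 and 402 in wild type. Those groups separated narrowly (-0.29 ± 0.24 SE), but another Bid probe set separated the opposite way (115 and 135 against 77.9 and 61.5; 0.85 ± 0.44). Bad, which is held inactive by growth factor signalling, differed by -0.01 ± 0.19. Bmf, which senses loss of attachment, differed by -0.03 ± 0.17 by its brightest probe set, whose suffix marks possible cross-hybridisation. A dim Bmf probe set, also with such a suffix, read 78.9 and 97.5 against 30.0 and 22.6 (1.75 ± 0.63, adjusted p = 0.659 in limma). It was the only one of the 39 further probe sets tested with an unadjusted p under 0.05, and none of the 39 passed. Bcl2l11, which encodes Bim, the main BH3-only protein of growth factor withdrawal, differed by -0.10 ± 0.20, and its other four probe sets by 0.53, 0.19, 0.36 and -0.74. Bik, a BH3-only protein of the endoplasmic reticulum, was dim at 54.0 and 34.7 against 46.5 and 57.0, with overlap (-0.25 ± 0.65). Under quantile normalization, where the brightest probe set was picked anew, the Bik difference was -1.44 and may come from another probe set. A further Bik probe set read 53.3 and 7.44 against 64.5 and 99.1, lower without overlap (-1.54 ± 0.80, adjusted p = 0.874 in limma), and 1 too dim to be tested gave 1.23. Leaving out Hox13dKO replicate 2 turned the brightest to 0.0702, and it ranged from -0.57 to -0.10 with any other array left out.

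The pore formers and the caspase machinery were close to wild type. Bak1 read 473 and 543 in Hox13dKO against 717 and 494 in wild type, with overlap (-0.23 ± 0.23 SE), and Bok 397 and 615 against 636 and 485 (-0.17 ± 0.26). Casp2 differed by -0.04 ± 0.13, the initiator Casp8 by -0.06 ± 0.19, Casp9 by -0.06 ± 0.28 and Apaf1, the scaffold of the apoptosome, by 0.02 ± 0.18. The 95% intervals of these genes, of Cycs and of Diablo all lay within a 2-fold change. Cycs, the electron carrier whose release triggers the apoptosome, read 13788 and 13996 in Hox13dKO against 15145 and 14001 in wild type. The groups did not overlap, but the nearest arrays almost touch (-0.07 ± 0.13). Its other bright probe sets differed by -0.24 and -0.23, also without overlap. Diablo, which relieves the block on caspases by IAP proteins, read 1423 and 1604 against 1713 and 1836, again lower without overlap (-0.23 ± 0.15, 1.17-fold, adjusted p = 0.905 in limma).

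Taking the 15 tested pro-death genes (BH3-only, pore formers, caspase machinery) apart from the 5 pro-survival genes, both medians were near that of all genes. The pro-death median was -0.06, with 12 of 15 differences negative, and dropping Hox13dKO replicate 2 gave 0.04, dropping its replicate 1 gave -0.13. The pro-survival median was -0.05 with 5 of 5 negative, 0.03 without wild type replicate 1 and -0.18 without Hox13dKO replicate 1. Over all genes tested 7083 of 13072 differences were negative. Among the 5 pro-survival genes, 1 stood apart from wild type.

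That gene was Bcl2, which blocks the opening of the mitochondrial membrane. By its brightest probe set it read 466 and 442 in Hox13dKO against 994 and 907 in wild type. The replicates of each group lay close together and the groups far apart. The means were 454 ± 17.4 and 950 ± 61.9 (SD, n = 2 each) and the log2 difference -1.06 ± 0.18 (SE; 2.09-fold lower; 95% interval -1.47 to -0.65). It did not pass (adjusted p = 0.0859 in limma). It passed without wild type replicate 2 (-1.13, adjusted p = 0.0133), and over 15 alternative settings the adjusted p ran from 0.00833, with the replicate number as a block, to 0.640. With each of the other arrays left out the adjusted p ranged from 0.0563 to 0.487 at differences between -0.998 and -1.10.

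All 5 Bcl2 probe sets had a lower mean log2 signal in Hox13dKO, and in 4 of them both Hox13dKO arrays lay below both wild-type arrays. The next brightest read 253 and 157 against 312 and 315 (-0.66 ± 0.31 SE, adjusted p = 0.845 in limma). The others were dim, below 91 on every array, and differed by -0.34, -1.07 and -0.42, the last with overlap between the groups. The probe set at -0.34 has a suffix that marks possible cross-hybridisation. Its nearest arrays almost touch, at 72.53 in Hox13dKO against 72.54 in wild type. At -1.07 the nearest arrays were also close (63.6 against 64.3). Probe sets of 1 gene share the same RNA and are not replicates. As the mean over its probe sets, Bcl2 differed by -0.71 (adjusted p = 0.640).

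**Figure D3:**
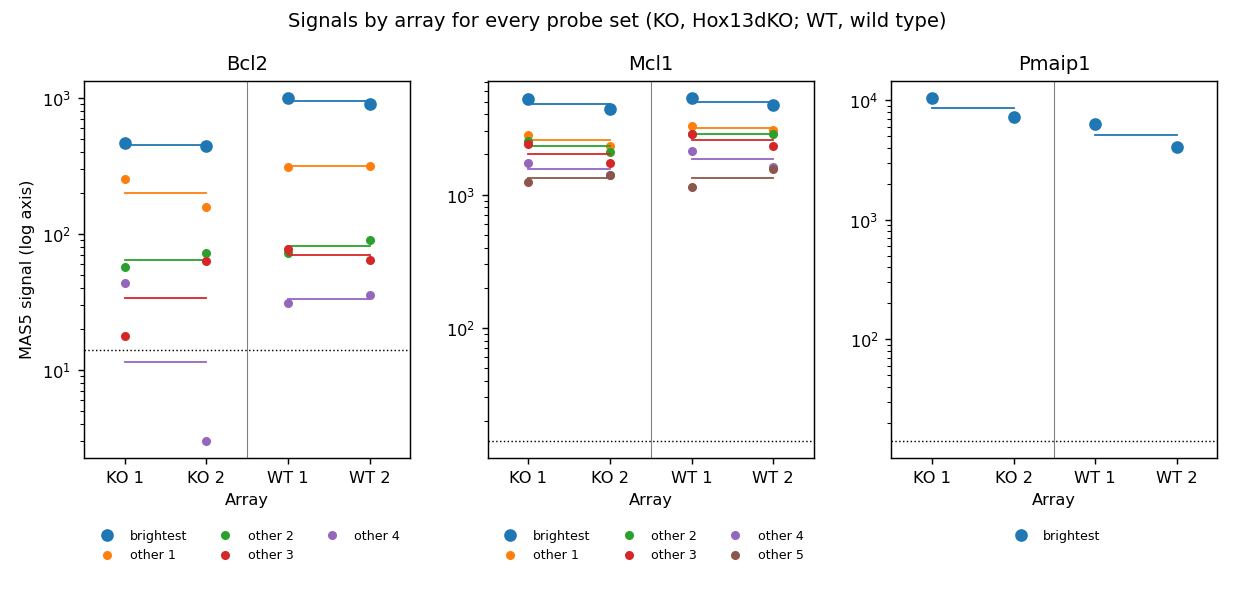
MAS5 signal (log axis) on each array for every probe set of Bcl2, Mcl1 and Pmaip1; lines mark the geometric mean of a group and the dotted line the floor of 14.1. The brightest Bcl2 probe set reads 442 to 466 in Hox13dKO and 907 to 994 in wild type, while the Mcl1 groups lie close together and Pmaip1 is higher in Hox13dKO with a narrow gap.

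The other pro-survival genes were near wild type by their brightest probe sets. Mcl1, the short-lived protein that Noxa binds, read 5223 and 4414 in Hox13dKO against 5299 and 4697 in wild type, with overlap (-0.06 ± 0.14 SE). All 6 Mcl1 probe sets had negative differences, from -0.008 to -0.34. In 2 of them the arrays did not overlap, and the suffix of both marks possible cross-hybridisation. Bcl2l1, which encodes Bcl-xL, read 873 and 887 against 982 and 792, with the Hox13dKO arrays between the wild-type arrays (-0.003 ± 0.18). Of its other tested probe sets, the brighter gave -0.33 ± 0.30, with overlap. The dimmer, at 198 and 208 against 83.0 and 160, lay higher in Hox13dKO (0.81 ± 0.40, adjusted p = 0.861 in limma). Xiap, a direct caspase inhibitor, read 3180 and 1913 against 2725 and 2406 (-0.05 ± 0.23). The dimmer Xiap probe sets went both ways. Of those tested, the brightest gave 0.03, the next read 111 and 109 against 140 and 141, lower without overlap (-0.35 ± 0.37). The last of the tested gave -0.93, also lower without overlap. Those too dim to be tested gave 0.77 and -0.10 with overlap and 0.41, higher without overlap. Birc5, which encodes survivin, an IAP protein that works chiefly in mitosis, read 6787 and 7020 against 7406 and 6938 (-0.05 ± 0.12), a 95% interval from -0.34 to 0.23.

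Further genes of both pathways, listed by function, were mostly near wild type as well. Of 26 other p53 pathway genes tested, 0 passed in limma, 1 had an unadjusted p under 0.05, and the median was 0.04. That gene was Rprm, a p53-induced arrest gene, at -0.60 ± 0.22 (SE), from 504 and 413 in Hox13dKO against 596 and 798 in wild type, without overlap. Perp, an epithelial p53 target, differed by 0.31 ± 0.15, Sfn, an epithelial 14-3-3 protein, by -0.53 ± 0.26, and Ddb2, a damage-recognition protein, by 0.42 ± 0.26. Of 23 other apoptosis genes tested, 1 passed, Bnip3, a BH3-related mitochondrial protein known for its induction in hypoxia. It read 3851 and 6493 against 1672 and 1442, well separated (1.69 ± 0.23, adjusted p = 0.0461). Without Hox13dKO replicate 2, whose Bnip3 signal was the highest, its difference was 1.31 and did not pass (adjusted p = 0.167; 1.03e-05 to 0.601 over 15 alternative settings). Dffa, the inhibitor of the apoptotic DNase, read 624 and 543 against 831 and 830, lower without overlap (-0.51 ± 0.18, adjusted p = 0.622).

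**Figure D4:**
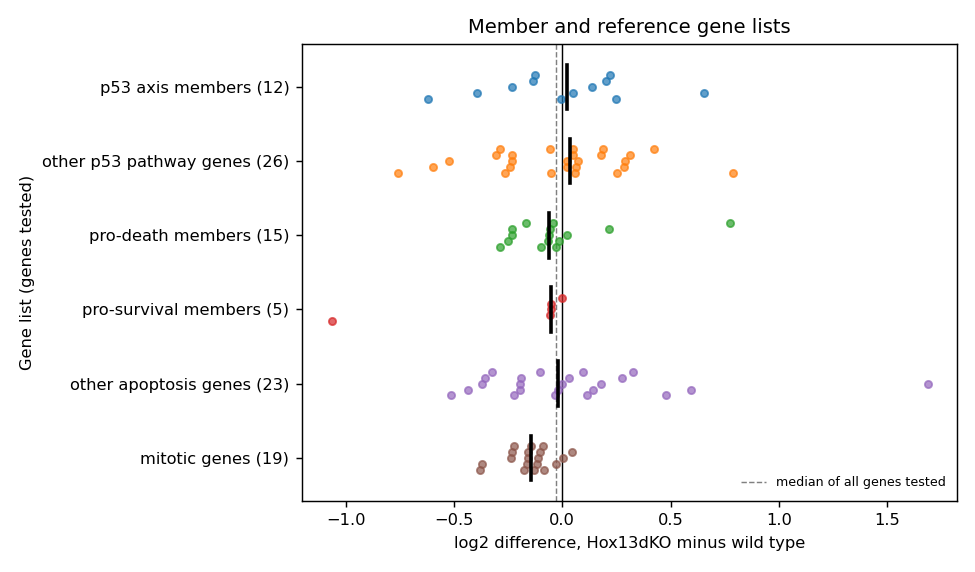
Log2 difference, Hox13dKO minus wild type, of each tested gene (points) in the p53 axis, pro-death and pro-survival groups and in further p53 pathway, apoptosis and mitotic genes, with the list medians (black bars) and the median of all genes tested (dashed). Medians run from -0.14 for mitotic genes to 0.04 for the other p53 pathway genes, and Bcl2 (-1.06) and Bnip3 (1.69) lie far from the medians of their lists.

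Gtse1 and Birc5 are also cell cycle genes, so mitotic genes were set beside them. Of 19 tested, 0 passed in limma and 2 had an unadjusted p under 0.05; 17 differences were negative, with a median of -0.14. The summed mitotic signal was 106406 and 109892 in Hox13dKO against 116958 and 119316 in wild type, without overlap. Plk1, a mitotic kinase (-0.38 ± 0.14 SE), and Kif20a, a motor of cell division (-0.37 ± 0.14), had the lowest differences. The part of cell division in the values of Gtse1 and Birc5 was not tested.

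Summed signals of markers of other cell types also differed between the groups. Those of 10 endothelial markers were 4326 and 5342 in Hox13dKO against 3584 and 4118 in wild type, and all 10 differences were positive. Those of 10 macrophage markers were 2172 and 2200 against 1572 and 1710, those of 9 muscle precursor markers 1837 and 3789 against 814 and 730, and those of 8 erythroid markers 92287 and 107013 against 75658 and 98965. Ectoderm markers summed to 9276 and 11691 against 9166 and 8765. No marker on these lists lay under the floor on all 4 arrays. These sums, apart from the erythroid one, were higher on both Hox13dKO arrays, but a sum is carried by its brightest genes. Differences were positive for 7 of 9 tested macrophage markers, 6 of 8 muscle precursor markers, 6 of 7 erythroid markers and 6 of 10 ectoderm markers. By the lowest p of each list in limma, Mrc1 of the macrophage markers differed by 1.30 ± 0.24 (SE) and Cdh5 of the endothelial by 0.77 ± 0.22. Alas2 of the erythroid markers differed by 1.13 ± 0.32, and Tbx5 of limb mesenchyme by 1.02 ± 0.32. Limb mesenchyme differences were positive for 5 of 10. Myog of the muscle precursors, under the floor on 1 wild-type array, differed by 3.54 ± 0.67. Among ectoderm markers Fgf8 was higher (0.83 ± 0.22 SE) and Krt8 lower (-0.61 ± 0.21) without overlap, and among muscle precursor markers Pax3 (-1.16 ± 0.88) and Met (-0.25 ± 0.26) were negative. Of all these markers Actc1, a muscle actin, was the only one to pass (3.76, adjusted p = 0.0182 in limma). The Actc1 difference was 3.08 without Hox13dKO replicate 2. On all 4 arrays it missed the threshold with no filter (adjusted p = 0.413 in limma) and with no intensity trend (0.591). Their part in the Bcl2 and Pmaip1 values was not tested.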

How the data were processed

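The deposited intensity values were MAS5 signals of Affymetrix arrays, 1 per probe set and array, per the submitters' processing notes; no version of MAS5 is named there. All 4 arrays share 45101 probe sets, 34958 of them with 1 gene symbol in the platform annotation, 932 with several and 9211 with none. Signals were floored at their 20th percentile (14.1) and taken to log2, with no further scaling. Probe sets below the 40th percentile of mean log2 signal (a geometric mean of 39.6) and 64 controls were left out. Groups were compared with limma 3.58.1 (R 4.3.3; lmFit, eBayes with intensity trend; 2 residual and 6.05 prior degrees of freedom), with Benjamini-Hochberg adjustment across the 27022 probe sets left and a threshold of 0.05. The pipeline was tested on simulated data. Replicate numbers are shared between groups but were not taken as pairs. Alternatives covered scaling, floor, filter, variance model, block, probe set choice and each array left out.

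The members and lists were chosen with earlier results of these data known. Values on every array were given for members past the threshold, the 6 highest and 6 lowest differences, Mdm2, Cdkn1a, Bcl2 and Mcl1. Trp53 and Bax were to be given too but had no probe set to read. Of each other list, genes past the threshold or else up to 4 with the lowest p were named, and in several lists fewer than 4. Other values were added after they were seen. Promoter windows came from RefSeq, and 31 of 36 members had one. With 2 arrays a group, precision is limited by their number.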

Additional observations from a re-analysis of the deposited data

How the results depend on the processing

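Of 202 recomputed log2 differences of the followed members, 186 kept their direction and side of the threshold. At an adjusted p of 0.10, 1 member passed, Bcl2. With each array left out in turn 0 to 1 passed in limma, and the lone array is then assumed to vary like the other group's; the adjusted p over 15 alternatives ranged from 0.00833 to 0.640 for Bcl2 and from 0.00107 to 0.963 for Pmaip1. The p53 axis median was 0.0925 with no filter, -0.0816 as the mean over probe sets and -0.0895 to 0.0017 with an array left out. The pro-death median was 0.0397 as the mean over probe sets and -0.13 to 0.0393 with an array left out, the pro-survival median -0.18 to 0.0316. Some small differences changed sign. Mdm2 was 0.0296 under median centring, and as the mean over probe sets Bid was 0.20, Mdm4 -0.35 and Sesn2 -0.0355. With an array left out, Eda2r ranged from -1.84 to 0.60, Bik from -0.57 to 0.0702, Cdkn1a from -0.27 to 0.67, Trp53inp1 from -0.0589 to 0.55, Mdm2 from -0.0404 to 0.0292 and Mcl1 from -0.18 to 0.0661. The cause was not tested. Bnip3, followed after its value was seen, also missed the threshold with no floor, no filter, no trend and the mean over probe sets.

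With the replicate number as a block (replicate block), 2 members passed, Bcl2 (adjusted p = 0.00833 in limma) and Pmaip1 (0.00107). Same-numbered arrays deviated together weakly (r = 0.20 over probe sets), but 2 pairs are too few to take the numbers as pairing. Over all probe sets the block gave 418 calls against 56, median centring 214, no filter 0 (lowest adjusted p of a member 0.321), no trend 1, the mean over probe sets 17, and single arrays left out 20 and 11 (Hox13dKO replicates 1 and 2) and 306 and 525 (wild type). Brightness limits Eda2r, Bik, Fas and Tnfrsf10b.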
